A study of Mus musculus with 6 samples.

Results

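The insulin-like growth factor (IGF) genes described here are the ligands Igf1 and Igf2, the receptors Igf1r and Igf2r, and the 6 binding proteins Igfbp2, Igfbp3, Igfbp4, Igfbp5, Igfbp6 and Igfbp7. They were picked by gene symbol, 10 of the 19505 named genes on the array, with the brightest probe set standing for a gene. Each of the 10 had 1 probe set, so that this rule made no choice among values. RNA came from submandibular glands, a pair of major salivary glands, of female NOD mice aged 10 weeks, a strain that develops autoimmune infiltrates of these glands. The mice were 3 NOD.B6-Myd88+/+ animals with the wild-type gene and 3 NOD.B6-Myd88-/- animals homozygous for the knockout, and each gave 1 Clariom S array. Myd88 is the adaptor of most Toll-like receptors and of the interleukin-1 receptor family. In whole glands, fewer cells of a type and less RNA per cell cannot be told apart.

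IGF-1 and IGF-2 are secreted peptides that signal growth and survival through the tyrosine kinase receptor encoded by Igf1r. The receptor encoded by Igf2r has no such kinase, takes up IGF-2 for breakdown and also carries lysosomal enzymes. Binding proteins hold the ligands in blood and matrix, where they can lengthen their life or keep them from the receptor, until proteases release them. Besides the liver, stromal cells and macrophages are known sources of IGF-1, which can act on cells nearby.

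The targeted gene was looked at before the others. Myd88+/+ replicates 1, 2 and 3 had Myd88 at 7.81, 7.86 and 7.53 log2 units, and the Myd88-/- glands had 7.33, 6.80 and 7.47 in the same order. The groups were apart, but no source used here says whether the probe set lies in the deleted part, so the labels stay unchecked by it. Arrays differed in how widely their values spread between the outer deciles, at 7.10 to 7.30 log2 units in Myd88+/+ and 6.83 to 7.13 in Myd88-/- glands. Myd88-/- replicates 1 and 3 had the narrowest spreads, 6.95 and 6.83, and the lowest shares of positive above negative control pairs, 0.785 and 0.780. The median difference was 0.09 among the dimmer 50% of probe sets and −0.07 among the brighter 50%.

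As a group, 8 of the 10 IGF genes had a lower mean in Myd88-/- than in Myd88+/+ glands, and the ligand Igf2 and the receptor Igf2r a higher one. Over all tested probe sets 47.5% had a lower and 52.5% a higher mean, and of the 8240 named genes at least as bright as the dimmest of the 10, 63.4% had a lower one. Igfbp5 stood farthest from 0, at a log2 difference of −1.77 (95% interval −2.59 to −0.94, n = 3 each), a 3.40-fold lower level. It was the only 1 of the 10 at 2-fold or more, where 0.829% of all probe sets were at least 2-fold lower and 0.0721% at least 2-fold higher. Igf1, Igf1r, Igfbp4 and Igfbp7 lay between −0.62 and −0.51, that is 1.43 to 1.53-fold lower. Igf2 had 0.42 and Igf2r 0.17, while Igfbp2, Igfbp3 and Igfbp6 had −0.36, −0.04 and −0.01 with overlapping groups. No gene of the 10 passed limma's test after Benjamini-Hochberg adjustment over all 22206 probe sets (0 of 10, adjusted p 0.321 to 0.998). The same test called 0 probe sets in all (0%), and 2232 had an unadjusted p under 0.05 (10.1%).

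In 5 IGF genes every Myd88-/- gland read below every Myd88+/+ gland, and in 2 every Myd88-/- gland read above. Over all tested probe sets 7.25% were apart in the lower and 7.84% in the higher direction, 15.1% together. Of the 8240 named genes at least as bright as the dimmest of the 10, 12.2% were apart and lower and 4.36% apart and higher. An unadjusted limma p under 0.05 was reached by 5 of the 10 with a lower and by 1 with a higher mean, against 5.55% and 4.5% of all probe sets. The median difference of the 10 was −0.44, against 0.01 for all 19505 named genes and −0.09 for the 8240. Since the 10 genes were chosen with results of these data known, these counts describe them and test nothing. The lowest of their readings, of Igfbp3, lay 0.95 log2 units above the median of the background controls.

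**Figure D1:**
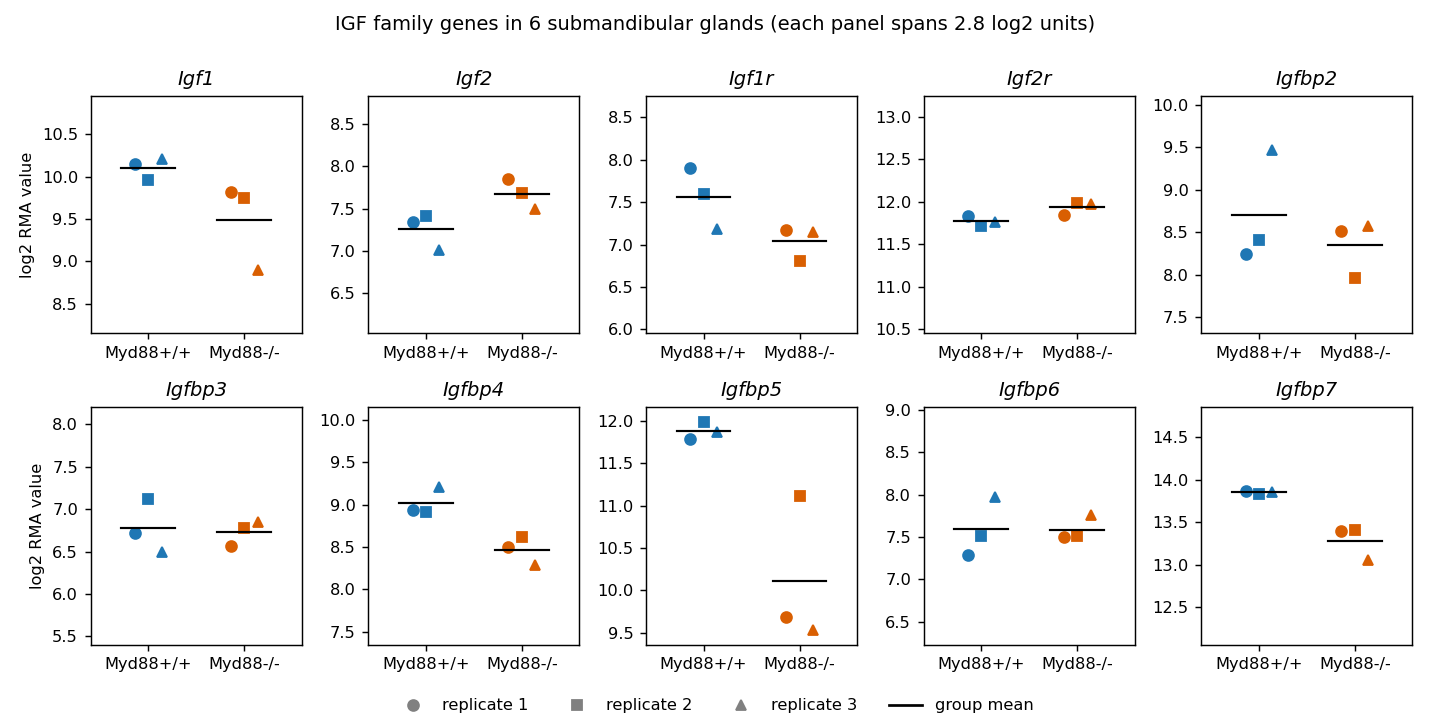
Log2 RMA values of the 10 IGF genes (one panel each, vertical axis in log2 units, every axis spanning the same range) in 3 Myd88+/+ and 3 Myd88-/- glands, with a marker shape for each replicate and a bar at the group mean. Igfbp5 shows the widest gap, with Myd88-/- replicate 2 at 11.11 and the other two at 9.69 and 9.54.

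The 2 ligands lay on opposite sides of 0. Igf1 read 10.15, 9.96 and 10.21 in Myd88+/+ and 9.82, 9.75 and 8.90 in Myd88-/- glands, each in the order of the replicate numbers, as in all that follows. All Myd88-/- values were below the lowest Myd88+/+ value, by a gap of 0.14, and Myd88-/- replicate 3 was the lowest. The group means were 10.11 ± 0.13 and 9.49 ± 0.51 (SD, n = 3 each), a difference of −0.62 (95% interval −1.18 to −0.05, limma adjusted p = 0.469). Without Myd88-/- replicate 3 the difference was −0.32, and without replicate 1 it was −0.78. Igf2, the fetal growth factor that is expressed from the paternal allele, read 7.34, 7.41 and 7.02 in Myd88+/+ and 7.84, 7.68 and 7.49 in Myd88-/- glands. Here the lowest Myd88-/- value was above the highest Myd88+/+ value, by 0.08. Its difference was 0.42 (95% interval 0.0029 to 0.83, limma adjusted p = 0.492) and ran from 0.30 to 0.51 when single mice were left out.

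Set against each other within a gland, the 2 ligands parted further. Igf1 minus Igf2 was 2.81, 2.55 and 3.19 log2 units in Myd88+/+ and 1.98, 2.07 and 1.41 in Myd88-/- glands. The groups did not overlap and their means differed by −1.03. Both follow from the values of each ligand given above and add no further result. The offset between 2 probe sets carries no meaning, only its shift between glands does. This pairing was chosen after the values were seen and has no test.

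The receptors showed the same kind of split on a smaller scale. Igf1r read 7.90, 7.59 and 7.18 in Myd88+/+ and 7.17, 6.81 and 7.15 in Myd88-/- glands. The groups were apart by only 0.01, with Myd88+/+ replicate 3 at almost the level that Myd88-/- replicates 1 and 3 had, and they overlapped after quantile normalization and after cyclic loess. The means were 7.56 ± 0.36 and 7.04 ± 0.21 (SD, n = 3 each), a difference of −0.51 (95% interval −1.01 to −0.02, limma adjusted p = 0.483). It was −0.70 without Myd88+/+ replicate 3 and −0.34 without Myd88+/+ replicate 1. Igf2r read 11.83, 11.71 and 11.76 in Myd88+/+ and 11.84, 11.99 and 11.97 in Myd88-/- glands. All of these lie within a narrow band, the groups were apart by 0.02, and median centring made them overlap. The difference was 0.17 (95% interval −0.19 to 0.52, limma adjusted p = 0.747), and it was 0.29 with quantile normalization and 0.26 with cyclic loess. Igf1r minus Igf2r within a gland shifted by −0.68 between the groups, again without overlap, which likewise follows from the values of each receptor.

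Among the binding proteins, Igfbp5, a secreted protein that binds both ligands and the extracellular matrix, had the largest difference. It read 11.79, 11.99 and 11.86 in Myd88+/+ and 9.69, 11.11 and 9.54 in Myd88-/- glands. The Myd88+/+ glands lay close together, and Myd88-/- replicate 2 was nearer to them than to the other glands of its own genotype. The means were 11.88 ± 0.10 and 10.11 ± 0.87 (SD, n = 3 each), with a standard error of 0.37 for the difference of −1.77 (limma adjusted p = 0.321). Its unadjusted p ranked 58 among the 22206 probe sets. Igfbp5 passed only when Myd88-/- replicate 2 was left out, at −2.27 and an adjusted p of 0.0267, against 0.16 to 0.728 in all other settings. That gland is the one nearest to the other genotype, and its removal widens the gap by construction. Without Myd88-/- replicates 1 and 3, the arrays with the narrowest spans, the difference was −0.77. This leaves replicate 2 as the only Myd88-/- gland, so the gap shrinks by construction too. The part of the narrow spans in this result was not tested.

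Igfbp7, which binds IGFs weakly and is known from vessel walls and basement membranes, had the smallest spread of the 10 among Myd88+/+ glands (SD 0.02). It read 13.87, 13.84 and 13.86 in Myd88+/+ and 13.39, 13.41 and 13.05 in Myd88-/- glands, and the groups were apart by 0.43. The difference was −0.57 (95% interval −0.95 to −0.19, limma adjusted p = 0.388). Igfbp4, which mostly restrains IGF-1 until it is cleaved, read 8.94, 8.91 and 9.21 in Myd88+/+ and 8.50, 8.61 and 8.29 in Myd88-/- glands. It was apart by 0.30, with a difference of −0.55 (95% interval −0.95 to −0.16, limma adjusted p = 0.402). Leaving out single mice moved Igfbp7 between −0.63 and −0.45 and Igfbp4 between −0.63 and −0.46. Igfbp5 minus Igfbp7 within a gland lay between −2.08 and −1.85 in Myd88+/+ glands and was −3.71, −2.30 and −3.52 in Myd88-/- glands, without overlap and with no test. Igfbp5 minus Igfbp2 did overlap, at 3.54, 3.58 and 2.40 in Myd88+/+ and 1.17, 3.15 and 0.97 in Myd88-/- glands.

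The remaining binding proteins showed no separation of the groups. Igfbp2, which besides the ligands can bind integrins, read 8.24, 8.41 and 9.46 in Myd88+/+ and 8.52, 7.96 and 8.57 in Myd88-/- glands. Myd88+/+ replicate 3 was the highest, and without it the difference turned from −0.36 to 0.02. Igfbp3, the main carrier of IGFs in blood, read 6.72, 7.12 and 6.49 in Myd88+/+ and 6.57, 6.78 and 6.85 in Myd88-/- glands, a difference of −0.04 (95% interval −0.50 to 0.41). Igfbp6, which prefers IGF-2, read 7.29, 7.51 and 7.97 in Myd88+/+ and 7.50, 7.51 and 7.76 in Myd88-/- glands. Its difference of −0.01 (95% interval −0.48 to 0.47) turned to 0.10 with quantile normalization and 0.06 with cyclic loess. These intervals leave room for differences of up to 1.41-fold in Igfbp3 and 1.39-fold in Igfbp6. The limma adjusted p of the 3 genes was 0.734, 0.961 and 0.998.

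**Figure D2:**
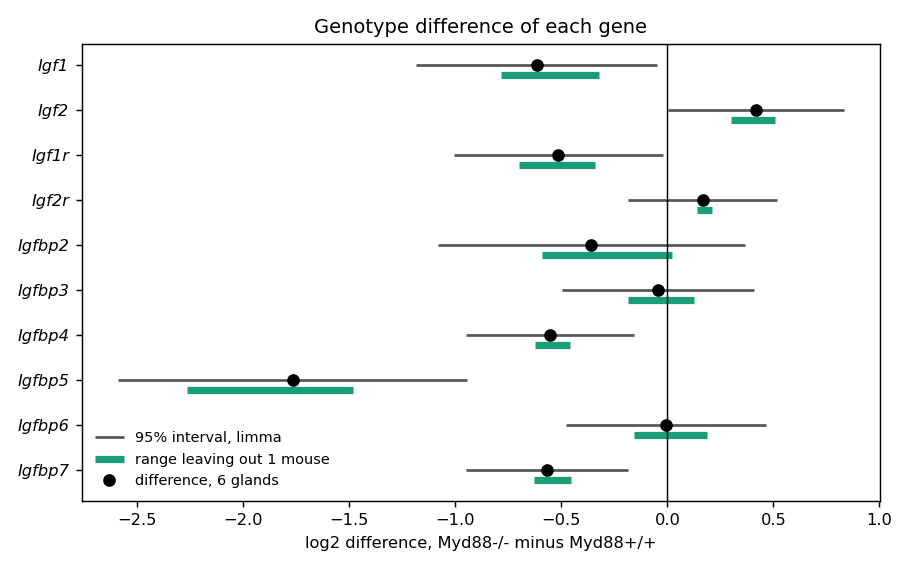
Log2 difference, Myd88-/- minus Myd88+/+, of each IGF gene (horizontal axis, log2 units; points), with limma's 95% interval (thin line) and the range of the difference when each mouse was left out in turn (thick line). Igfbp5 lies at −1.77, and the thick lines of Igfbp2, Igfbp3 and Igfbp6 cross 0.

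The promoters of 4 genes whose groups were apart in the lower direction are shown, to let their start regions be compared. Igf1r was left out here, as its groups were apart by only 0.01. The sequences are the 250 bases before the RefSeq start on assembly GRCm38.p6, read 5′ to 3′ on the gene's strand. Igf1 lies at chr10:87860861-87861110 on the plus strand, Igfbp4 at chr11:99040994-99041243 on the plus strand, Igfbp5 at chr1:72874866-72875115 on the minus strand and Igfbp7 at chr5:77408046-77408295 on the minus strand. Capitals mark matches on either strand to any of 4 motifs, and no match overlapped another. The first is the TATA box with the letters TATAAA. A related run of the same kind was searched as TATTTAA. The GC box, bound by Sp1 and its relatives, was searched as GGGCGG. The site of AP-1 factors was searched as TGANTCA.
Igf1: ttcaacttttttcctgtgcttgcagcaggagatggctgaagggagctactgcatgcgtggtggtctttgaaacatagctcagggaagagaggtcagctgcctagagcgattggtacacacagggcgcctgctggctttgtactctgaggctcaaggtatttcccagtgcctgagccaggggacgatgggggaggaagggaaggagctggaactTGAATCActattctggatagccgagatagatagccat
Igfbp4: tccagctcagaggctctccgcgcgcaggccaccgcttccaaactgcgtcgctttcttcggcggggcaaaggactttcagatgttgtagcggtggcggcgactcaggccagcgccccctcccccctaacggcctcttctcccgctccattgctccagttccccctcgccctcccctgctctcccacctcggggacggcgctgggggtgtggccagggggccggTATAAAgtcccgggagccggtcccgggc
Igfbp5: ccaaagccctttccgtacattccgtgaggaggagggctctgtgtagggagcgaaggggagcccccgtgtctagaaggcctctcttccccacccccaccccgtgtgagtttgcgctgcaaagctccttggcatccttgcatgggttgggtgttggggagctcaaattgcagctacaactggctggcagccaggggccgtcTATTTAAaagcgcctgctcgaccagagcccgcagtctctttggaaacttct
Igfbp7: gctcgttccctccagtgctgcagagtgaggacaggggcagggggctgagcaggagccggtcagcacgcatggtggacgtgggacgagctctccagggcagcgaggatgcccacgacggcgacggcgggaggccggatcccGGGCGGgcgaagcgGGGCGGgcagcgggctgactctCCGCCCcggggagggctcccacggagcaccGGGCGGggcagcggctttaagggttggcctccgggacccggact

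The 4 start regions were not alike. Igfbp4 held TATAAA from 28 to 23 bases before its start, and Igfbp5 held TATTTAA from 51 to 45 bases before. Igfbp7 held 4 GC boxes and neither TATA run, and its window was 74.0% G or C. Igf1 held a TGANTCA match from 37 to 31 bases before its start and none of the others, in a window of 52.8% G or C. Of all 32851 promoter windows of this length, 12.4% held TATAAA, 4.18% TATTTAA, 32.7% GGGCGG and 6.75% TGANTCA. TTCNNNGAA, the letters of a STAT or GAS element that 7.02% of windows hold, had no match in any window of the 10 genes. All 10 genes had an entry, with 4 windows for Igf2 and 2 for Igfbp2. Such matches describe letters in a window and say nothing of binding.

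The other genes of the axis were described by the same counts. Among 10 measured proteases that cleave binding proteins and their inhibitors, 7 had a lower and 3 a higher mean, and 0 passed limma's adjusted test (smallest adjusted p 0.321). Htra1, a secreted serine protease that cleaves Igfbp5 among other matrix proteins, read 8.56, 8.20 and 8.31 in Myd88+/+ and 7.42, 7.58 and 7.21 in Myd88-/- glands. These groups were apart, with a difference of −0.95 (−1.04 to −0.85 without 1 mouse). Adam12, a membrane protease that can cleave Igfbp3 and Igfbp5, had 0.21 and groups just apart in the higher direction. Pappa, the protease that cleaves Igfbp4, had −0.03 with overlapping groups.

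The growth hormone axis, which drives Igf1 in liver, held 7 measured genes, of which 4 had a lower and 3 a higher mean. Jak2, the kinase of the growth hormone receptor and of several cytokine receptors, read 9.23, 9.15 and 9.60 in Myd88+/+ and 8.64, 8.36 and 8.02 in Myd88-/- glands, a difference of −0.98 (limma adjusted p = 0.328). The receptor gene Ghr itself had 0.03, with overlapping groups. Downstream of the IGF-1 receptor, 19 of 23 measured genes had a lower and 4 a higher mean, with a median of −0.21, and 5 were apart in the lower direction (21.7%). Of the 8240 named genes at least as bright as the dimmest of the 10 IGF genes, 63.4% had a lower mean and 12.2% were apart and lower. Over all named genes these shares were 48.4% and 7.45%. Neither set is matched in brightness to the 23, of which 2 had both means under the median of the background controls. The median difference of the 23 was −0.13 without Myd88-/- replicate 1 and −0.12 with quantile normalization. The 5 genes were the docking protein gene Irs2 with −0.78, the mTOR partner Rptor with −0.77, the kinase gene Map2k1 with −0.43, Tsc2, which restrains mTOR, with −0.34, and the adaptor gene Grb2 with −0.29. Irs2 had −0.47 without Myd88+/+ replicate 1, which read 9.23 against 8.40 and 8.19, and Grb2 had −0.17 without Myd88-/- replicate 2 and −0.16 with quantile normalization. Limma's test called 0 of 23 (smallest adjusted p 0.345), and 3 had an unadjusted p under 0.05.

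Of 6 other measured family genes 1 had a lower and 5 a higher mean, and 0 were apart. For 3 of them, among them Igfals, the partner of Igfbp3 in blood, both group means were under the background control median of 5.55. Insr, the insulin receptor gene, read 12.51 ± 0.08 and 12.35 ± 0.19 (SD, n = 3 each), with overlapping groups. Igf2bp3, an RNA-binding protein that binds the Igf2 transcript, read 6.12, 5.94 and 5.74 in Myd88+/+ and 6.98, 6.43 and 6.62 in Myd88-/- glands. Every Myd88-/- gland was above every Myd88+/+ gland, as for Igf2, with a difference of 0.75 (limma adjusted p = 0.368). Its Myd88+/+ readings, down to 5.74, lay near the background control median of 5.55. It was the only 1 of 5 listed mRNA-binding proteins and imprinted neighbours that was matched to a probe set, and the rest were not analysed here.

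**Figure D3:**
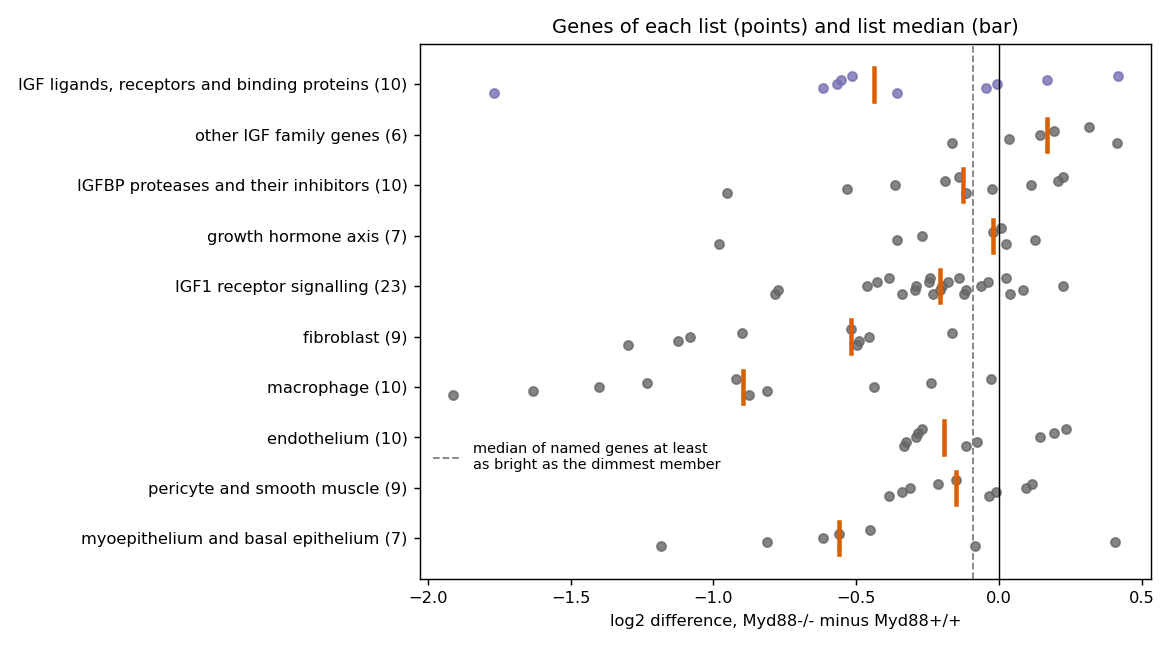
Log2 difference, Myd88-/- minus Myd88+/+, of every measured gene in the IGF group, its pathway lists and 5 marker lists (points, horizontal axis in log2 units). Brackets give the number of measured genes and bars the list median. The dashed line is the median of named genes at least as bright as the dimmest IGF gene. The IGF genes have a median of −0.44, fibroblast markers −0.52 and macrophage markers −0.90.

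Markers of the cell types that are known to make IGF-1 had lower means as well. Over all named genes 48.4% had a lower mean and 7.45% were apart and lower. Among those at least as bright as the dimmest IGF gene the shares were 63.4% and 12.2%, for comparison with this and the next marker lists. Of 9 measured fibroblast markers, 9 had a lower mean and 6 were apart, with a median difference of −0.52 (−0.81 without Myd88-/- replicate 2). The collagen gene Col1a2 had −1.12, the matrix gene Fbln1 −0.90 and Dpt −1.30. Of 10 macrophage markers 10 had a lower mean and 6 were apart, with a median of −0.90. This median was −0.67 without Myd88+/+ replicate 3 and −1.13 without Myd88+/+ replicate 1. Csf1r, the receptor of macrophage colony-stimulating factor, had −1.23, and the complement gene C1qb had −1.63. The summed level of the fibroblast markers was 17.64 to 18.03 log2 units in Myd88+/+ and 17.24 to 17.68 in Myd88-/- glands, which overlap. It is nearly the level of Dcn alone, whose group means were 17.82 and 17.37 with overlapping groups. The summed level of the macrophage markers was 11.93 to 13.49 in Myd88+/+ and 11.08 to 11.37 in Myd88-/- glands. Of the fibroblast list only Mfap5 had both means under the background median, and of the macrophage list none. Limma's adjusted test called 0 genes of either list, and 7 in each had an unadjusted p under 0.05, as had 10.1% of all probe sets. The part of these cell types in the IGF differences was not tested.

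Vessel markers had medians nearer to 0. Of 10 endothelial markers 7 had a lower mean with a median of −0.19 and 0 were apart, and of 9 pericyte and smooth muscle markers 7 had a lower mean with a median of −0.15 and 0 were apart. The endothelial median turned to 0.05 without Myd88-/- replicate 3 and was −0.34 without Myd88-/- replicate 2, and the pericyte median was −0.08 without Myd88+/+ replicate 1. Their differences ran from −0.38, of Des, to 0.24. Igfbp7 had −0.57, and the part of vessel cells in its difference was not tested. Cldn5, Cspg4 and Des had both means under the background median. Of 7 markers of myoepithelial and basal cells 6 had a lower mean and 1 was apart, with a median of −0.56, and Trp63, a basal cell factor, had −1.18. This median shrank to −0.29 when Myd88+/+ replicate 3 was left out, and it reached −0.82 when Myd88-/- replicate 2 was. It was −0.03 without Myd88-/- replicates 1 and 3, which leaves replicate 2 as the only Myd88-/- gland. The myoepithelial score, the mean over the list of the log2 value minus the mean of the 6 glands, was −0.52, 0.13 and −0.32 in Myd88-/- replicates 1, 2 and 3. Igfbp5 had −1.31, 0.11 and −1.46 on the same scale, and replicate 2 was the highest Myd88-/- gland in both. This was not particular to myoepithelial markers. Replicate 2 was also the highest Myd88-/- gland in the fibroblast, endothelial, pericyte, acinar and duct scores (−0.12, 0.08, 0.17, 0.02 and 0.09). It was not the highest in the macrophage, lymphocyte, adipocyte and muscle scores. The part of any of these cell types in the Igfbp5 result was not tested. In Myd88+/+ glands the myoepithelial score was highest in replicate 3, at 0.55, and Igfbp5 in replicate 2, at 0.99. The gland's own cell types were present, since Aqp5 of acini read 13.98 and 13.84 and Krt7 of ducts 13.74 and 13.48 in the group means, and 3 acinar markers were saturated on all arrays. Of 5 acinar markers the 3 saturated ones could show no difference. The other 2, Aqp5 and Bhlha15, had lower means by −0.14 and −0.09, with overlapping groups. Of 6 duct markers Klk1 was saturated too, 3 had a lower and 2 a higher mean, and 2 were apart in the lower direction. Of these 2, Krt19 had both means under the background median. The other, Ascl3, had group means of 9.24 ± 0.49 and 8.28 ± 0.16 (SD, n = 3 each), a difference of −0.96 (limma adjusted p = 0.360).

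Of 7 T and B lymphocyte markers 6 had a lower mean and 3 had both means under the background median. Their median was −0.22, and 0.02 without Myd88+/+ replicate 3, whose score of 1.05 stood above those of the other Myd88+/+ glands (−0.32 and 0.03). Adipocyte and skeletal muscle markers were mostly below background, with both means under its median for 6 of 7 and 5 of 6. The muscle marker above it, Ckm, had −0.65 with groups apart, and the adipocyte marker above it, Fabp4, had 0.35 with overlapping groups.

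**Figure D4:**
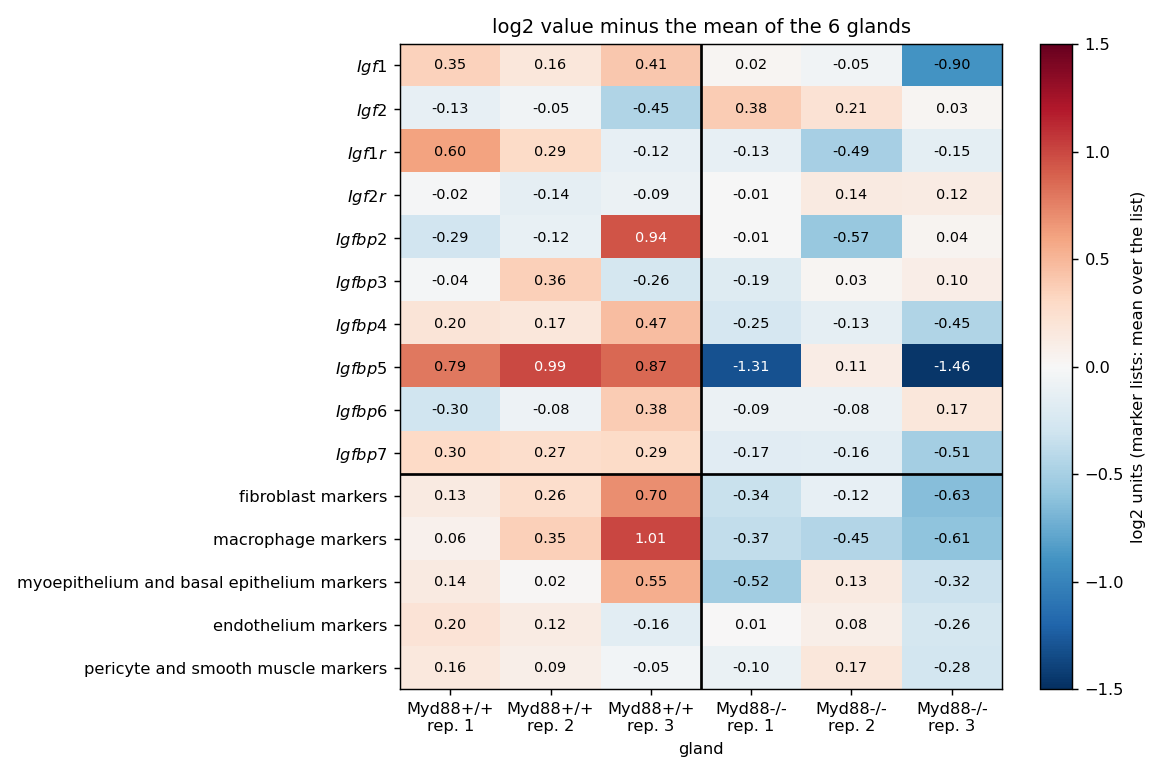
Log2 value minus the mean of the 6 glands (colour and printed number, log2 units) for each IGF gene, and the mean of this over 5 marker lists, in each gland (columns). Igfbp5 is lowest in Myd88-/- replicates 1 and 3, Igf1 in Myd88-/- replicate 3, and the macrophage score is highest in Myd88+/+ replicate 3 at 1.01.

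The IGF genes with lower means did not share one profile over the glands. Igf1 was lowest in Myd88-/- replicate 3 (−0.90 on the centred scale) and near 0 in Myd88-/- replicates 1 and 2 (0.025 and −0.051). Igf1r was lowest in Myd88-/- replicate 2 (−0.49), and Igfbp5 in Myd88-/- replicates 1 and 3. Igfbp4 and Igfbp7 were lowest in Myd88-/- replicate 3, at −0.45 and −0.51, and negative in all 3 Myd88-/- glands. Genes with the most similar profile were sought among 10840 named genes above the background median, by the root mean square difference of centred values over the 6 glands.

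For Igf1 the closest genes were Tns1 (0.079), Ston2 (0.084), Loxl1, a matrix crosslinking enzyme (0.096), and Epyc (0.097), where the spread of Igf1 itself was 0.433. For Igfbp7 they were Elmo2 (0.033), the protease gene Ctsh (0.066), Ruvbl1 (0.068) and the splicing factor Srsf5 (0.077), against a spread of 0.307. For Igf1r they were Ints1 (0.075), Snx33 (0.076), Prkd3 (0.084) and Stk10 (0.088), against 0.351. Igfbp5 had less close neighbours, Lcn2, an iron-binding secreted protein (0.298), Ifitm3 (0.369), Tns4 (0.400) and Car12, a carbonic anhydrase (0.409), against a spread of 1.02. With 6 glands many genes can come this close, and the likeness is a description.

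Tns1 and Tns4, 2 of these genes, are tensins, adaptors that link integrins to actin, and tensin genes lie beside most of the binding protein genes. The likeness was not to the gene beside them, as Tns1 was listed for Igf1 and Tns4 for Igfbp5. No likeness search was made for Igfbp4. On assembly GRCm38.p6 Tns3 is the next coding gene to Igfbp3 and Tns4 to Igfbp4 (0 between). Tns1 has 1 coding gene between it and Igfbp5 and 2 between it and Igfbp2. Tns2 has 1 between it and Igfbp6, while the chromosome of Igfbp7 holds none of Tns1 to Tns4. Tns4 read 9.91, 9.71 and 9.40 in Myd88+/+ and 7.96, 9.13 and 8.32 in Myd88-/- glands, a 2.30-fold lower level (difference −1.20, limma adjusted p = 0.345). Tns1 had −0.66 (−0.39 without Myd88-/- replicate 3), Tns3 −0.34 and Tns2 −0.32, each with groups apart in the lower direction and none past the adjusted test. In that direction 7.25% of all probe sets were apart, and 12.2% of named genes at least as bright as the dimmest IGF gene. The neighbours did not always differ alike, since Igfbp3 and Igfbp6 had differences of −0.04 and −0.01 beside Tns3 and Tns2. The tensins were picked after their values were seen.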

How the data were processed

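Total RNA of 6 submandibular glands was labelled as single-stranded cDNA and hybridised to 1 array per mouse, per the labels' protocols. Per the labels, the authors computed the deposited log2 values by RMA (robust multi-array average), and the submitters' processing notes name the Transcriptome Analysis Console. No source used here gives its version or the annotation's genome build. Scanner files were not used here. RMA is known to shrink differences near background, and values end at a ceiling of 19.93.

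Of 28846 probe sets, 6640 controls were left out and 22206 tested, and 19572 had 1 gene symbol. Groups came from the sample titles. Myd88-/- minus Myd88+/+ was fitted without covariates by limma's lmFit and eBayes (version 3.58.1, R 4.3.3), adjusted by Benjamini-Hochberg over all 22206, with a call at an adjusted p under 0.05. The fit was tested on simulated data. Two-sided exact permutation tests of single genes cannot go below p = 0.1 with 3 mice against 3; they gave 0.1 for the 7 genes with groups apart, 0.6 for Igfbp2, 1 for Igfbp3 and 0.8 for Igfbp6. With 6 arrays, their number sets the precision. The 10 genes, the lists and the likeness search were chosen with earlier results of these data known. Named beside the 10 were pathway genes with groups apart or an unadjusted p under 0.05, a few others for their role, up to 3 markers of a list, and the 4 genes most like Igf1, Igf1r, Igfbp5 and Igfbp7. Alternatives were other normalizations, filters on dim probe sets, variance models, a replicate block, and fits without single mice. Promoter sequences are RefSeq's.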

Additional observations from a re-analysis of the deposited data

How the results depend on the processing

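Of the 10 IGF genes, Igf1, Igf1r, Igf2, Igf2r, Igfbp4, Igfbp5 and Igfbp7 kept their direction in all 16 alternatives, and none of the 7 but Igfbp5 passed in any. The dim filters, the replicate block and the variance models other than array weights could not move a difference, so they say nothing of direction. Igfbp6 turned to 0.0997 (quantile normalization) and 0.0649 (cyclic loess), and leaving out single mice moved it from −0.16 to 0.18, Igfbp3 from −0.19 to 0.13 and Igfbp2 from −0.59 to 0.0218. Without Myd88-/- replicates 1 and 3 together, an alternative added after seeing the data, Igfbp3 had 0.0035; a lone Myd88-/- gland is then assumed to vary like the others. Of the 10 genes, 0 to 1 were called without 1 mouse, 6 to 8 had a lower and 2 to 4 a higher mean, and with median centring 1 was apart and higher. Over all probe sets limma called 2 with median centring, 4 with an intensity trend and robust variances, and 0 to 5 without 1 mouse (5 without Myd88+/+ replicate 1). The 2 groups share replicate numbers, but same-numbered glands did not deviate together (r = −0.11, −0.15 and −0.02). Glands of unlike number had r from −0.12 to 0.20. With 3 glands per group these values cannot settle whether glands were paired. With the replicate block 0 probe sets and 0 of the 10 genes were called. Every gene had 1 probe set, so the mean over probe sets gave no other value. The cause of these shifts was not tested.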
